A study of Drosophila melanogaster with 216 samples.

Results

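Whole-body transcripts of virgin Drosophila melanogaster females were compared 1 day after eclosion between flies raised as larvae on 1SY food and flies raised on 0.25SY food. Of the 216 arrays of the series, 24 belong to this comparison by their labels of sex, age and larval diet, 12 for each larval diet. Each array held RNA of 5 whole flies. The 1SY food was the standard laboratory diet, made with yeast at 70 g and sugar at 100 g to the litre, and for 0.25SY food these amounts were 17.5 g and 25 g. These amounts follow the labels and the study's methods, while another passage of the study exchanges the amounts of the pair. Emerging females of both larval diets were spread over adult food of 0.25SY, 1SY or 2.5SY, the last made with 175 g and 250 g. This made 6 groups of 4 arrays, and the comparison was fitted with adult diet as a covariate. All flies came from a single laboratory stock population and carried no transgene or drug treatment. Females raised on 2.5SY (12 arrays), males of the same age (24 arrays) and females of middle and old age (24 arrays each, taken when 10% and 90% of their cohort had died) were set beside them. How many cohorts supplied the 1-day-old flies is not given in the sources used here, so the p-values measure the spread between these arrays, which may be partly technical.

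An adult fly stops growing at metamorphosis, and the food of the larva therefore sets the body with which it ecloses. Larval fat body cells, which hold stored protein, fat and glycogen, survive metamorphosis as loose cells and are broken down during early adult life. In the same period the cuticle hardens and darkens, the flight muscles and gut take on their adult state, and the ovaries bring their earliest egg chambers to yolk uptake and eggshell formation. Virgin females keep mature eggs rather than laying most of them.

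The values are RMA values on the log2 scale, so a difference of 1 is a doubling of the signal. RNA of whole flies cannot tell fewer cells of a type from less RNA per cell. The yolk protein transcript Yp1 averaged 14.62 in 1SY-raised and 14.60 in 0.25SY-raised females, and the sperm protein transcript Mst84Da 5.21 and 5.19. Yp1 thus lay near the highest value of the data, 15.09, which goes with the label female. No male values of these 2 transcripts were set beside them. The leading principal component of the 24 arrays held 40.06% of the variance. The 1SY arrays lay between 6.89 and 33.47 on it and the 0.25SY arrays between -29.83 and -7.26, so the larval diets did not overlap. One array, larval 1SY and adult 1SY replicate 3, stood apart on the next component and had the lowest quality weight, 0.2441. The median over probe sets was also lower in the arrays of 1SY-raised females, 6.73 against 6.83 on average, a shift of -0.10. This shift was not removed in the main fit, where the median of the differences over all probe sets was 0.02. Centring each array on its median takes the shift out and so raises every difference by its size. Within each larval diet, arrays of lower median also tended to score higher on the leading component. On larval and adult 1SY, medians of 6.67 to 6.70 went with scores of 25.16 to 33.47. On larval 1SY and adult 0.25SY, medians of 6.77 to 6.81 went with 6.89 to 11. How much of that component the shift made up was not tested.

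Of 18769 probe sets, 4330 (23.1%) were higher and 3697 (19.7%) were lower in 1SY-raised than in 0.25SY-raised females. Most differences were small. Among the probe sets that passed, 510 were higher and 987 lower by at least 0.5 on the log2 scale, and only 17 were higher and 16 lower by at least 1. With centred arrays the split was 8082 higher and 2671 lower, while without replicate 3 of larval 1SY and adult 1SY it was 4430 and 3829. With quantile normalization repeated over the 1-day-old females it was 4257 and 3526. Counted by gene, with the brightest probe set standing for each of 11982 genes, 3568 (29.8%) were higher and 2903 (24.2%) were lower, and the median difference was 0.02. The gene lists below are read against these shares. With centred arrays the medians of these lists described below turned from below to above 0: metal handling, odorant-binding proteins, cuticular proteins, carbohydrate digestion, glutathione transferases, ecdysone and juvenile hormone, and antimicrobial peptides, as did that of the Turandot list. In 1057 genes (8.82%) all 12 arrays of 1SY-raised females lay above all 12 of 0.25SY-raised females, and in 481 (4.01%) all lay below.

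Of the 5 largest increases, 2 were in proteins of the larval fat body. Fbp2, a protein of the late larval fat body (probe set 1640035_at), ranged from 7.22 to 10.50 with a median of 9.30 in 1SY-raised females. It ranged from 5.83 to 7.89 with a median of 6.32 in 0.25SY-raised females. A few arrays overlapped, and the spread was wide in both groups (SD 1.14 and 0.65, n = 12 each). The difference was 2.50 ± 0.34 (SE), a 5.67-fold higher signal, with an adjusted p of 1.01e-06.

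Fbp1, through which fat body cells take up larval serum proteins (1638338_a_at), ran from 6.97 to 10.05 (median 8.85) on larval 1SY and from 5.89 to 7.64 (median 6.54) on larval 0.25SY. It was 4.04-fold higher in 1SY-raised females, a difference of 2.02 ± 0.33 (adjusted p = 1.24e-05). Lsp2, a larval serum storage protein (1641634_at), had medians of 9.74 and 9.08 and ranges of 8.08 to 11.62 and 6.95 to 10.30. Its difference of 0.88 ± 0.39 did not pass (adjusted p = 0.0757), and on adult 1SY food the group means went the other way, with a difference of -0.24. Thus 2 of the 3 larval serum and fat body genes measured rose and none fell.

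Obp99b (1623675_at), of the odorant-binding protein family, was also among the largest increases. Its range was 8.06 to 11.27 (median 10.08) in 1SY-raised and 7.16 to 9.76 (median 7.61) in 0.25SY-raised females, a difference of 2.14 ± 0.34 (adjusted p = 1.14e-05). The highest value on larval 0.25SY, 9.76, came from replicate 1 on adult 1SY, which was also the highest 0.25SY array for Fbp2 (7.89) and Lsp2 (10.30). Over the whole family 3 of 47 genes rose and 16 fell, with a median of -0.09. With centred arrays 9 were higher and 13 lower, and the median was 0.02. Obp57a (-0.86 ± 0.06), Obp56e (-0.87 ± 0.11) and Obp56g (-0.80 ± 0.10) were below every 0.25SY array in all 12 arrays of 1SY-raised females.

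**Figure D1:**
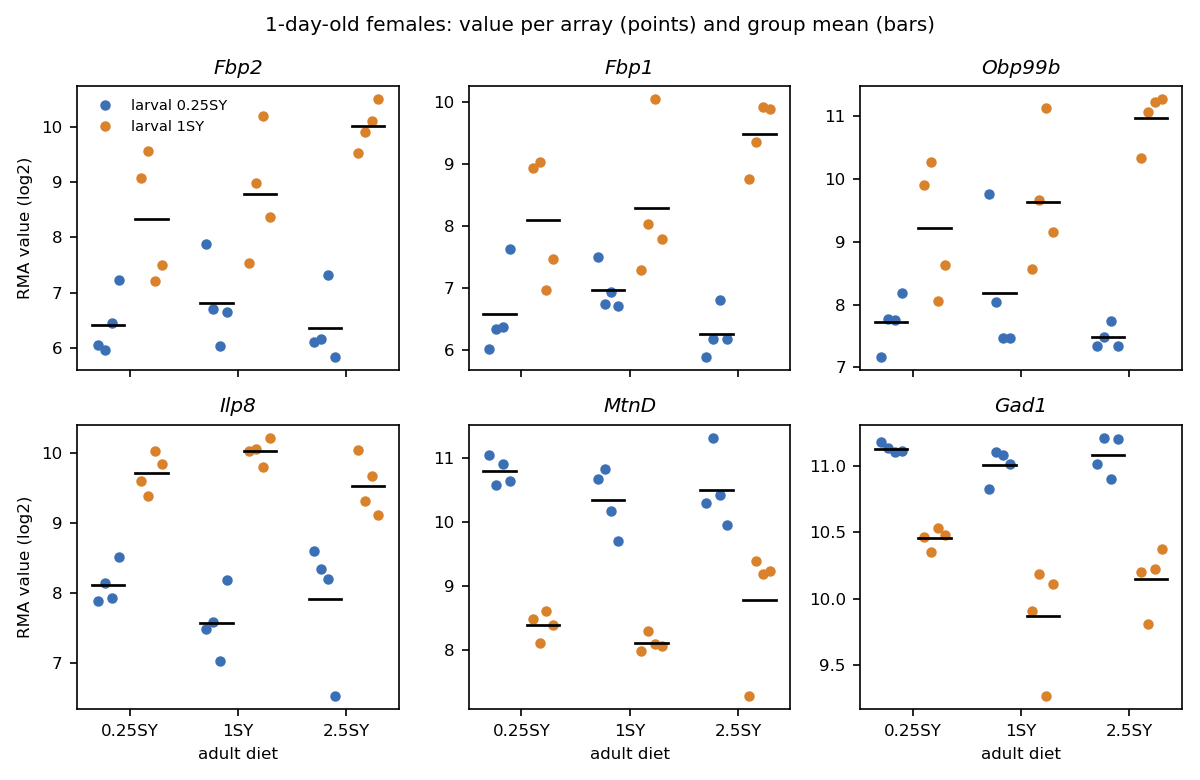
RMA value (log2, y axis) of 6 genes in each of the 24 arrays (points) by adult diet (x axis) and larval diet (colour), with group means as black bars (4 arrays each). Fbp2, Fbp1 and Obp99b overlapped between the larval diets in some arrays, whereas Ilp8 was higher, and MtnD and Gad1 were lower, in every array of 1SY-raised females.

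Among growth signals, the relaxin-like peptide Ilp8 stood out. In larvae it is released by imaginal discs whose growth is disturbed and delays metamorphosis through the receptor Lgr3. The values here are of adult females, and the tissue that gave the Ilp8 signal in them was not tested. In 1SY-raised females Ilp8 (1625664_at) lay between 9.11 and 10.21, with a median of 9.81. In 0.25SY-raised females it lay between 6.53 and 8.60, with a median of 8.03. No arrays overlapped, and the signal was 3.69-fold higher on larval 1SY, a difference of 1.88 ± 0.19 (adjusted p = 3.27e-08).

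Ilp7, another relaxin-like peptide, known from neurons (1624169_at), had a range of 5.99 to 7.51 (median 6.68) against 4.73 to 5.95 (median 5.36). Again no arrays overlapped, and it was 2.41-fold higher (1.27 ± 0.18, adjusted p = 1.49e-06). These were the only 2 of 18 members of the insulin and growth list that rose, while 8 fell. The median of the list was -0.12, and -0.02 with centred arrays, where 3 were higher and 7 lower. Among the ligands, Ilp2, a peptide of the insulin-producing cells of the brain, fell by 0.42 and the nutrient-responsive peptide CCHa2 by 0.47, and sNPF, a neuropeptide that promotes feeding, fell by 0.97. The fat body ligands Gbp1 and Gbp2 differed by -0.27 (adjusted p = 0.0021) and -0.33 (adjusted p = 0.00022). The sNPF values ran from 4.87 to 7.11 on larval 1SY, the lowest of them in replicate 3 on adult 1SY, and from 7.06 to 7.56 on larval 0.25SY.

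ImpL2, a secreted protein that binds insulin-like peptides, fell by 0.25. Further down the pathway the kinase Akt differed by -0.33 (adjusted p = 0.0023) and the adaptor chico by -0.10 (adjusted p = 0.021). The chico difference was about the size of the shift between array medians (-0.10), which was not removed. The receptors InR (-0.18, adjusted p = 0.059) and Lgr3 (0.01, adjusted p = 0.93) and the transcription factor foxo (-0.12, adjusted p = 0.12) did not pass.

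Metallothioneins, small cysteine-rich proteins that bind copper, zinc and cadmium, went the opposite way. MtnD (1631962_at) was at 7.29 to 9.40 (median 8.35) in 1SY-raised and at 9.70 to 11.32 (median 10.61) in 0.25SY-raised females. All 12 arrays on larval 1SY lay below the other 12, and the signal was 4.32-fold higher in 0.25SY-raised females (difference -2.11 ± 0.20, adjusted p = 1.23e-08). The same separation held for MtnC (1628446_at), at 10.55 to 11.29 against 11.60 to 12.69, with medians of 10.98 and 12.27. It also held for MtnA (1632873_at), at 12.92 to 13.78 against 14.17 to 14.51, with medians of 13.46 and 14.28. MtnC was 2.50-fold and MtnA 1.85-fold higher on larval 0.25SY (differences of -1.32 ± 0.11 and -0.89 ± 0.07, each with an adjusted p of 3.48e-09).

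MtnB (1630291_at) ranged from 6.91 to 8.31 (median 7.76) and from 7.96 to 8.98 (median 8.71), with some overlap, and differed by -0.97 ± 0.15 (adjusted p = 1.03e-05). These 4 metallothioneins were the only members of the list of 14 metal-handling genes that fell. The copper importers Ctr1B (0.42 ± 0.07) and Ctr1A (0.16 ± 0.03) rose, as did the metal transporter Mvl (0.20, adjusted p = 0.005). MTF-1, the transcription factor that switches on metallothioneins, differed by 0.05 (adjusted p = 0.42). The iron storage subunits Fer1HCH (-0.01, adjusted p = 0.90) and Fer2LCH (-0.03, adjusted p = 0.49) did not pass either. With centred arrays 6 of the 14 genes were higher and 4 lower.

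Beyond Fbp2, Fbp1, Obp99b and Ilp8, the 10 largest increases were in transcripts for which no role is given here. CG31661 (1633182_at) ranged from 8.39 to 9.63 (median 9.43) in 1SY-raised and from 5.59 to 8.44 (median 7.49) in 0.25SY-raised females, a difference of 1.84 ± 0.26. CG15721 (1633928_at) ranged from 8.64 to 10.33 (median 10.01) and from 5.77 to 9.48 (median 8.24), a difference of 1.75 ± 0.29. CG13138 (1636595_a_at) ranged from 6.41 to 8.0 (median 7.06) and from 4.46 to 6.58 (median 5.08), a difference of 1.67 ± 0.24. In all of them the highest 0.25SY arrays reached into the range of the 1SY arrays. CG6508 (1.58 ± 0.24), CG12517 (1.48 ± 0.21) and the mucin Muc12Ea (1.35 ± 0.23) completed the 10.

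Muc12Ea (1637929_a_at) ran from 11.38 to 13.02 (median 12.64) on larval 1SY and from 9.33 to 12.09 (median 11.46) on larval 0.25SY. Cp15, a late chorion protein (1623044_at), ran from 14.18 to 14.96 (median 14.70) and from 10.84 to 14.47 (median 14.14). Replicate 4 of larval 0.25SY and adult 2.5SY was the lowest array for Cp15, Muc12Ea, CG15721, Ilp8 and Fbp2. Cp15 differed by 0.96 ± 0.32 (adjusted p = 0.0166), and by 0.69 ± 0.22 without that array (adjusted p = 0.0132). The call was lost when all 216 arrays shared the fit (adjusted p = 0.163) and when adult 1SY was left out (0.100).

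The chorion proteins Cp16 (0.67 ± 0.20) and Cp18 (0.53 ± 0.16) and the eggshell protein Femcoat (0.62 ± 0.17) rose as well. By contrast the vitelline membrane protein Vm32E fell by 0.38, and the clotting protein fon, which the list also holds, by 0.25. The calls of Cp16, Cp18, Femcoat and Vm32E were lost as well when all 216 arrays shared the fit, and that of fon with centred arrays (adjusted p = 0.0821). Over the whole eggshell and yolk list, 7 of 18 rose and 3 fell, with a median of 0.01. The yolk proteins Yp1, Yp2 and Yp3 differed by 0.02, 0.03 and 0.01 and did not pass (adjusted p = 0.69, 0.54 and 0.87).

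Germline transcripts rose more uniformly. In the list of female germline and oogenesis genes 24 of 33 rose, 1 fell and the median was 0.34. In 12 of the 33 all 1SY arrays lay above all 0.25SY arrays. For mtrm, an inhibitor of Polo kinase in the oocyte (1629445_at), values were 13.17 to 13.48 (median 13.28) on larval 1SY and 12.65 to 13.03 (median 12.83) on larval 0.25SY, a difference of 0.46 ± 0.04 (adjusted p = 6.15e-09). For bcd, the maternal transcript that patterns the anterior of the embryo (1631463_a_at), they were 11.57 to 11.87 (median 11.76) and 10.91 to 11.45 (median 11.16), a difference of 0.55 ± 0.05.

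Both transcripts thus separated the larval diets fully at a difference of under 0.6. The RNA-binding protein exu, which localises bcd RNA (0.52 ± 0.05), the poly(A) polymerase wisp (0.43 ± 0.04) and the germline helicase vas (0.57 ± 0.08) also rose. When all 216 arrays shared the fit, the calls of mtrm, bcd and wisp were lost (adjusted p = 0.22, 0.166 and 0.137). The exception was grk, the oocyte's signal to the follicle cells, which fell by 0.26. Of 19 testis genes 2 rose, 1 fell and the median was 0.04. Testis genes were dim in these females, with 11 of the 19 at a mean of at least 5. The mean over the list was 5.07 to 5.48 in 1SY and 5.12 to 5.37 in 0.25SY arrays.

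Most proteasome genes rose by small amounts. Of 40 proteasome genes, 27 rose and 1, Rpn13R, fell (by 0.34), and the median was 0.20. The call of Rpn13R was lost without adult 2.5SY (adjusted p = 0.112). Rpn2, a scaffold of the regulatory particle (1638876_at), had values of 11.91 to 12.05 (median 11.97) on larval 1SY and 11.59 to 11.85 (median 11.74) on larval 0.25SY, without overlap (0.26 ± 0.03, adjusted p = 5.96e-07). The core subunits Prosalpha7 and Prosalpha6 rose by 0.27 ± 0.03 and 0.26 ± 0.03.

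Of 29 aminoacyl-tRNA synthetases, which charge tRNAs with amino acids, 18 rose and 1 fell (median 0.14). The leading ones were mitochondrial: ValRS-m (1629427_at) was at 8.46 to 8.88 (median 8.74) against 8.03 to 8.41 (median 8.18), a difference of 0.51 ± 0.06, and SerRS-m and ArgRS-m differed by 0.40 ± 0.04 and 0.37 ± 0.04. PheRS-m, also mitochondrial, fell by 0.25. Mitochondrial ribosomal proteins were divided, with 26 of 69 up, 5 down and a median of 0.07, and mRpL3 rose by 0.26 ± 0.03 while mRpL27 fell by 0.20. With centred arrays none of the 69 was lower, mRpL27 included, and 49 were higher. In the ribosome biogenesis list 14 of 34 rose and 1 fell (median 0.08). They included the nucleolar proteins Surf6 (0.32 ± 0.04) and Mat89Ba (0.28 ± 0.05), and Rrp1 (0.43 ± 0.05), which in Drosophila is a DNA repair enzyme. Cytosolic ribosomal proteins scarcely differed: 3 of 41 rose, none fell and the median was 0.03, but with centred arrays 33 were higher.

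Of 10 heat shock proteins and chaperones, 7 rose and 2 fell. Hsf, the transcription factor of the heat shock response (1626844_at), was at 11.81 to 12.06 (median 11.91) on larval 1SY and at 11.41 to 11.76 (median 11.55) on larval 0.25SY, without overlap (0.38 ± 0.04, adjusted p = 9.50e-08). The small heat shock proteins Hsp26 and Hsp27 rose by 0.55 ± 0.07 and 0.50 ± 0.08, and l(2)efl, of the same class, fell by 0.38, as did the chaperone cofactor stv by 0.44. In the amino acid and TOR list 9 of 18 rose and 3 fell, among them the TOR inhibitors Nprl3 (0.45 ± 0.06) and Nprl2 (0.30 ± 0.05) and the amino acid transporter slif (0.51 ± 0.09).

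**Figure D2:**
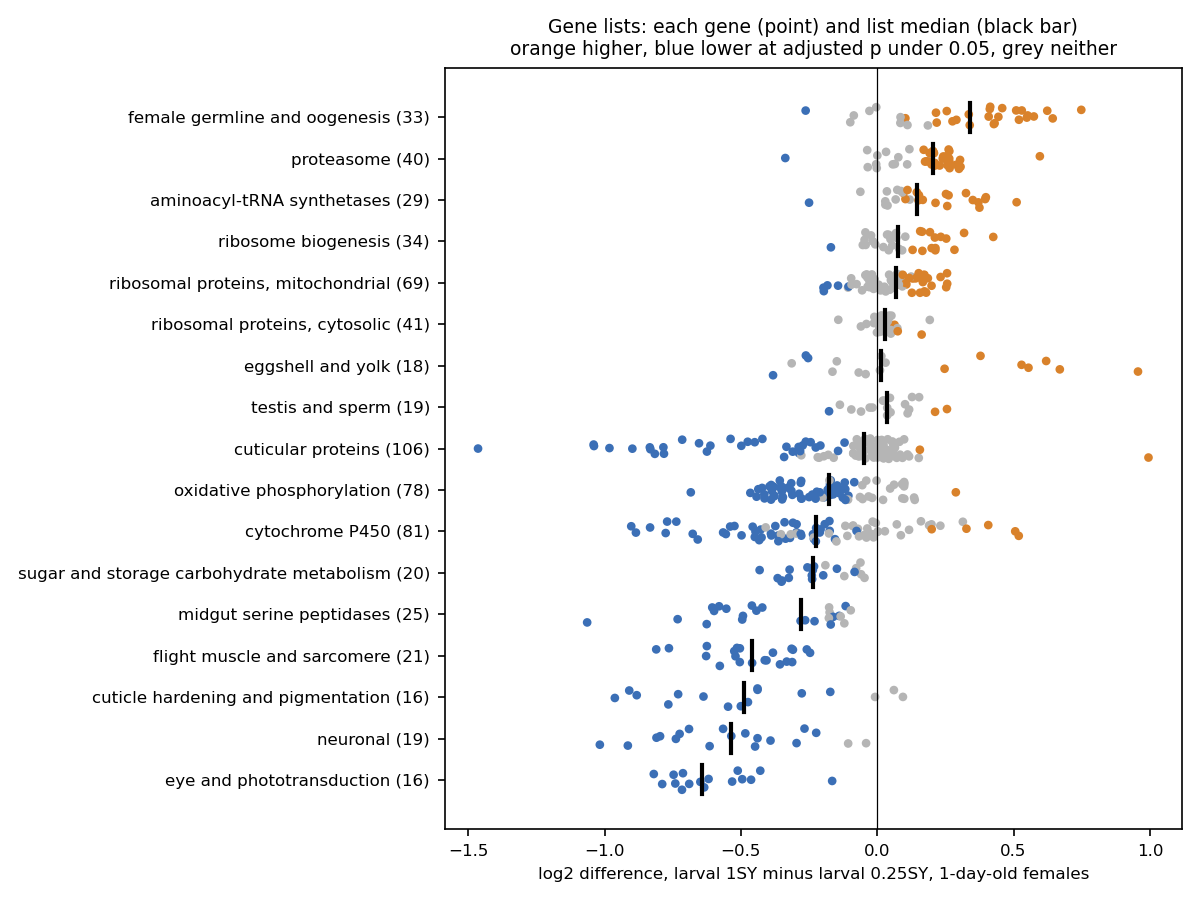
Log2 difference between 1SY-raised and 0.25SY-raised 1-day-old females (x axis) for each gene (point) of 17 lists (y axis, number of genes measured in parentheses), with list medians as black bars and colours for the adjusted p. Germline and proteasome genes lay mostly above 0 (medians of 0.34 and 0.20), and eye, neuronal and muscle genes below it (medians of -0.64, -0.54 and -0.46).

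Beside MtnD and MtnC, the 10 largest decreases held 4 genes of the cuticle. Cpr49Ah, a structural cuticle protein (1633647_at), was at 6.73 to 8.22 (median 7.69) in 1SY-raised and at 8.29 to 9.86 (median 8.97) in 0.25SY-raised females, a difference of -1.46 ± 0.19. The chitin-binding protein Gasp (1626893_at) was at 9.93 to 10.80 (median 10.26) against 11.00 to 11.81 (median 11.43), a difference of -1.12 ± 0.11. The chitinase Cht7 (1639636_at) was at 8.37 to 9.27 (median 8.74) against 9.47 to 10.12 (median 9.84), a difference of -1.06 ± 0.08. None of these overlapped between larval diets. The fourth cuticle gene, Cpr47Ea, differed by -1.04. The others of the 10 were CG11413, CG11893, CG18585 and the serine protease Ser12, between -1.16 and -1.06.

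Enzymes that harden and colour the cuticle moved in the same direction, with 13 of 16 lower, none higher and a median of -0.49. The yellow gene y, needed for black melanin (1633285_at), ranged from 6.36 to 6.94 (median 6.50) on larval 1SY and from 7.28 to 7.84 (median 7.56) on larval 0.25SY. It was 1.95-fold higher in 0.25SY-raised females (difference -0.96 ± 0.07, adjusted p = 1.06e-09), with no overlap. The laccase stw (-0.73 ± 0.08), yellow-h (-0.77 ± 0.08) and the dopa decarboxylase Ddc (-0.55 ± 0.06) were likewise below every 0.25SY array. The tyrosine hydroxylase ple, an earlier step, fell too (-0.44, adjusted p = 1.27e-05). The chitin synthase kkv, which makes chitin, differed by -0.91 (adjusted p = 2.89e-06). The hormone subunit Burs (0.06, adjusted p = 0.45) and its receptor rk (-0.01, adjusted p = 0.95), which trigger hardening, did not pass.

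Of 106 cuticular proteins, 32 fell and 2 rose, and the median was only -0.05. With centred arrays the counts became 21 lower and 20 higher. Cpr97Eb and Cpr67B differed by -0.98 ± 0.11 and -0.61 ± 0.07. Cpr49Ac went the other way (0.99 ± 0.23), mostly on adult 2.5SY food, where the difference was 1.94. Its call was lost without that adult diet (adjusted p = 0.103).

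Transcripts of muscle, eye and nervous system were lower in 1SY-raised females almost without exception. All 21 flight muscle and sarcomere genes fell, with a median of -0.46, and 11 of them did not overlap between larval diets. Prm, the paramyosin of thick filaments (1628105_a_at), ran from 12.51 to 12.90 (median 12.67) on larval 1SY and from 13.02 to 13.38 (median 13.18) on larval 0.25SY, a difference of -0.52 ± 0.05 (adjusted p = 9.18e-09). The troponin T gene up (1630261_a_at) ran from 11.96 to 12.52 (median 12.13) and from 12.53 to 12.91 (median 12.68), a difference of -0.51 ± 0.05.

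All 16 eye genes fell as well, with a median of -0.64. The phosphatidylinositol transfer protein rdgB of photoreceptors (1634099_at) was at 8.61 to 9.80 (median 9.42) against 9.88 to 10.54 (median 10.15), a difference of -0.74 ± 0.09. The photoreceptor G protein subunit Gbeta76C differed by -0.75 ± 0.10, and neither gene overlapped. Of 19 neuronal genes 17 fell and none rose, with a median of -0.54. Gad1, which makes the transmitter GABA (1627818_s_at), was at 9.27 to 10.53 (median 10.21) on larval 1SY and at 10.83 to 11.21 (median 11.10) on larval 0.25SY, again without overlap (-0.91 ± 0.09, adjusted p = 1.67e-08). The potassium channel Sh and the amyloid precursor homologue Appl differed by -0.74 ± 0.07 and -0.80 ± 0.08. The mean over the eye list was 8.79 to 9.71 in 1SY and 9.79 to 10.23 in 0.25SY arrays, and over the muscle list 12.26 to 12.59 and 12.72 to 13. With centred arrays 21 muscle, 15 eye and 16 neuronal genes were still lower.

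Oxidative phosphorylation followed muscle at a smaller size, with 55 of 78 genes lower, 1 higher and a median of -0.18. The complex I subunit ND-19 (1634417_s_at) ran from 12.33 to 12.68 (median 12.46) against 12.75 to 13.01 (median 12.85), without overlap (-0.39 ± 0.04, adjusted p = 3.33e-08). ND-13B and the complex II subunit SdhD differed by -0.44 ± 0.05 and -0.41 ± 0.04. The exception was ATPsynCF6L (0.29 ± 0.08), which was dim on these arrays (means of 4.94 and 4.66) and lost its call when all 216 arrays shared the fit (adjusted p = 0.164). With centred arrays 37 were lower and 8 higher. Muscle is rich in mitochondria, and the part that its share of the body had in this result was not tested.

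In the digestive and metabolic lists more genes fell than rose in 1SY-raised females, though many did not pass. Of 25 midgut serine peptidases 19 fell and none rose (median -0.28), among them the trypsins lambdaTry (-0.58 ± 0.05) and zetaTry (-0.63 ± 0.07). The carbohydrate digestion list had 6 of 16 lower and none higher, led by the mannosidase LManII (-0.56 ± 0.06) and the maltase Mal-B1 (-0.87 ± 0.15). The median of this list was -0.09. With centred arrays 5 were lower and 1 higher and the median was 0.01, while 14 of the midgut peptidases were lower. In the Malpighian tubule list 10 of 14 fell and 1 rose. The transporter NKCC differed by -0.51 ± 0.06. The riser was the alkaline phosphatase Alp8 (1.14 ± 0.45, adjusted p = 0.0461), whose call was lost under most other settings.

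In sugar and storage carbohydrate metabolism 14 of 20 fell and none rose (median -0.23), and the glycolytic enzyme Hex-A, the glycogen phosphorylase Glyp and the trehalose transporter Tret1-1 differed by -0.37 ± 0.05, -0.32 ± 0.06 and -0.35 ± 0.05. In fatty acid synthesis and fat storage 14 of 22 fell and 2 rose. The fatty acid synthase FASN3 differed by -0.64 ± 0.07 and the lipase mag by -0.54 ± 0.06, while Lsd-2, a coat protein of lipid droplets, rose (0.28 ± 0.07). With centred arrays 8 of the 20 sugar genes and 10 of the 22 fat genes were lower. Of 81 cytochrome P450 genes, which oxidise hormones and foreign compounds, 44 fell and 5 rose (median -0.23). With centred arrays 33 of them were lower and 11 higher (median -0.12). Cyp9f2 (-0.56 ± 0.05), Cyp4e1 (-0.77 ± 0.07) and Cyp12a4 (-0.78 ± 0.09) were below, and Cyp6a19 (0.51 ± 0.06) and Cyp6u1 (0.41 ± 0.05) above, every 0.25SY array. When all 216 arrays shared the fit the call of Cyp6a19 was lost (adjusted p = 0.0598).

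Glutathione transferases were split, with 6 of 34 higher and 12 lower (median -0.06), and 13 higher and 10 lower with centred arrays (median 0.05). GstD1 and GstO1 rose by 0.35 ± 0.04 and 0.36 ± 0.04, and GstO3 and GstS1 differed by -0.64 ± 0.06 and -0.44 ± 0.05. Of 30 ecdysone and juvenile hormone genes 5 rose and 10 fell (median -0.06), and with centred arrays 9 were higher and 7 lower (median 0.05). Eip93F, a transcription factor of the ecdysone response, differed by -0.70 ± 0.08, and Kr-h1, induced by juvenile hormone, by -0.68 ± 0.10. The ecdysone receptor partner usp rose by 0.31 ± 0.04. In the cell death and autophagy list 10 of 26 rose and 3 fell, with the initiator caspase Dronc up by 0.40 ± 0.05 and Atg3 and Atg16, of the autophagy machinery, by 0.19 ± 0.03 and 0.25 ± 0.04, and the death gene skl down (-0.64 ± 0.10). Of 16 immune peptides 5 fell, Drs among them (-0.28 ± 0.04), and none rose, while with centred arrays 3 were lower and 2 higher. The call of Drs was lost when all 216 arrays shared the fit (adjusted p = 0.325). None of 5 Turandot stress peptides passed in limma. At an unadjusted p under 0.05 the Turandot count was 1, TotF (-0.14 ± 0.06).

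The larval diet differences were present on each adult diet. On adult 0.25SY 2441 probe sets (13.0%) were higher and 1732 (9.23%) lower in 1SY-raised females, on adult 1SY 3228 (17.2%) and 2931 (15.6%), and on adult 2.5SY 3038 (16.2%) and 2403 (12.8%), with 4 arrays against 4 in each. The moderated F-test of limma called 0 probe sets (0%) for an interaction between larval and adult diet. The smallest adjusted p was 0.511, and 1254 probe sets (6.68%) had an unadjusted p under 0.05. This does not show that the differences were equal.

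Fbp2 differed by 1.91, 1.95 and 3.65 on adult 0.25SY, 1SY and 2.5SY, Obp99b by 1.50, 1.44 and 3.49, and Fbp1 by 1.51, 1.32 and 3.21. These 3 genes were thus furthest apart on adult 2.5SY. On larval and adult 1SY the highest array for all of them was replicate 3, the array of lowest weight. Its values were 10.188 for Fbp2, 11.117 for Obp99b and 10.051 for Fbp1. The next highest arrays of that group were at 8.992, 9.665 and 8.038. Ilp8 differed by 1.59, 2.45 and 1.61, and MtnD by -2.39, -2.23 and -1.72. CG11893, one of the 10 largest decreases, differed by -0.34, -1.63 and -1.31. The interaction p of all these genes was above the threshold after adjustment (for Fbp2 0.739, for CG11893 0.511).

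Females raised on 2.5SY, the richest larval food, lay between the others for many of these genes. Per the study's methods, earlier work found slower development and smaller adults on larval 0.25SY than on 1SY, with larval 2.5SY in between. What part body size or development time had in the values was not tested. Relative to 1SY-raised females, 1241 probe sets (6.61%) were higher in 2.5SY-raised females and 2478 (13.2%) lower. This comparison shares its 1SY arrays with the one above, so the values are only given side by side. Ilp8 had a median of 8.78 on larval 2.5SY (range 8.18 to 9.54) against 9.81 on larval 1SY and 8.03 on larval 0.25SY, and was 0.96 below the 1SY level (adjusted p = 0.00105). Fbp2 had a median of 7.65 and was 1.13 below it (adjusted p = 0.0334), while Fbp1 (difference -0.22, adjusted p = 0.759) and Obp99b (-0.42, adjusted p = 0.525) did not pass.

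MtnD had a median of 8.97 on larval 2.5SY and did not differ detectably from larval 1SY (0.57, adjusted p = 0.0770), and MtnA, at 13.28, was at the 1SY level (-0.16, adjusted p = 0.203). MtnC was 0.32 above it (adjusted p = 0.0452). Thus metallothionein levels on 2.5SY food were nearer to those on 1SY than to those on 0.25SY. Of the list genes, 17 of 21 muscle, 10 of 16 eye, 9 of 19 neuronal and 27 of 78 oxidative phosphorylation genes were higher on larval 2.5SY than on larval 1SY and none lower. Among female germline genes 17 of 33 were lower and none higher, and among proteasome genes 22 of 40 were lower and 1 higher.

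**Figure D3:**
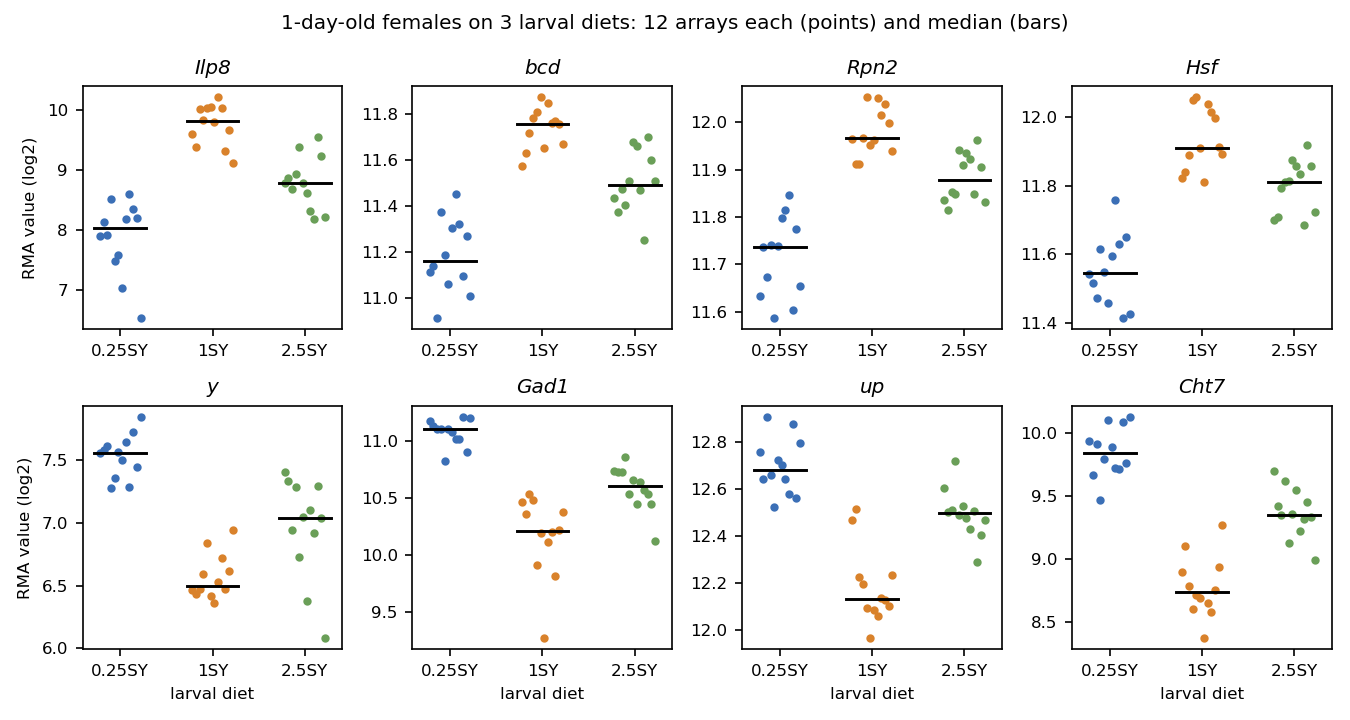
RMA value (log2, y axis) of 8 genes in 1-day-old females by larval diet (x axis), with 12 arrays per diet as points and medians as black bars. For Ilp8 the medians were 8.03, 9.81 and 8.78 on larval 0.25SY, 1SY and 2.5SY, and in each of the 8 genes the 2.5SY median lay between the other two.

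Males of the same age gave far fewer calls in the same comparison, 544 probe sets (2.90%) higher and 609 (3.24%) lower in 1SY-raised flies. The male counts took their spread from a joint fit of both sexes. The difference between the sexes was tested directly, and the female difference exceeded the male one in 3843 probe sets (20.5%) and was below it in 3105 (16.5%). The fat body transcripts differed in both sexes. Fbp2 differed by 3.88 ± 0.41 in males, and the test of the sexes did not pass (female minus male -1.37 ± 0.58, adjusted p = 0.0620). For Fbp1 the male difference, 3.74 ± 0.35, was the larger (-1.72 ± 0.50, adjusted p = 0.00521). Lsp2 differed by 1.57 in males (adjusted p = 0.000248), and the sexes were not shown to differ (-0.69, adjusted p = 0.197). Obp99b differed by 1.20 ± 0.25 in males, less than in females (0.95 ± 0.35, adjusted p = 0.0311).

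Ilp8 showed the reverse. In males it was low on both larval diets, with means of 5.76 and 5.86, and the difference of 0.10 ± 0.14 was 1.78 ± 0.20 below that in females (adjusted p = 1.03e-08). Ilp7 (male difference -0.01, female minus male 1.28), CG31661 (-0.10 and 1.94), CG15721 (0.02 and 1.72) and CG13138 (-0.03 and 1.70) likewise differed between the sexes. Metallothioneins fell in both sexes. MtnB differed by -1.04 in males, and the sexes were not shown to differ (female minus male 0.08 ± 0.24, adjusted p = 0.851). MtnD (-0.82 in males), MtnC (-0.69) and MtnA (-0.48) fell less in males, with female minus male differences of -1.29, -0.64 and -0.41.

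Gene lists parted in the same way. In males no eye gene passed (median -0.09), 2 of 21 muscle genes fell (median -0.06) and 3 of 19 neuronal genes fell (median -0.14). By the test of the sexes, 15 of the 16 eye, 21 of the 21 muscle and 13 of the 19 neuronal genes differed. The female minus male difference was -0.49 for up, -0.75 for Gad1 and -0.93 for y. Midgut serine peptidases were lower in males too, with 12 of 25 down (median -0.21). In the carbohydrate digestion list 7 of 16 rose in males (median 0.41), where none rose in females, and 12 of the 16 differed between the sexes.

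At later ages few larval diet differences passed. In middle-aged females 1 probe set (0.00533%) was higher and 1 (0.00533%) lower in 1SY-raised flies, and in old females 0 (0%) and 0 (0%). Each age had 12 arrays against 12, but limma took the spread from a joint fit of the female ages. The 1-day counts above came from a fit of 1-day-old females alone, so the error terms differ. The SE at both later ages was 0.20 for Fbp2 and 0.54 for Muc12Ea, against 0.34 and 0.23 in the 1-day fit. A fit of each later age alone was not tested. At an unadjusted p under 0.05 the joint fit gave 1816 probe sets at middle and 1031 at old age. With array quality weights 161 probe sets passed at middle age. The study left out some arrays of these ages for insufficient quality, whereas none was left out here. Its own analysis, over both ages and all 3 larval diets, did report female transcripts affected by larval diet. The counts here therefore do not show that larval diet left no trace at later ages. The larval diet difference at 1 day was tested against that at middle age in the same females' design, and 3758 probe sets (20.0%) passed. Against old age 6685 (35.6%) passed. The difference of Fbp2 was -0.06 at middle and 0.11 at old age, with means of 5.31 and 5.25 on larval 0.25SY and 1SY in middle-aged females, below both day 1 means (6.54 and 9.04). For Fbp1 the differences were -0.03 and 0.00, and for Obp99b -0.32 and 0.51.

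For Ilp8 the mean of 0.25SY-raised females was 7.87 at 1 day, 9.21 at middle age and 9.96 at old age, while that of 1SY-raised females was 9.75, 9.31 and 9.61. For MtnD the means of 1SY-raised females were 8.43, 10.39 and 11.19, against 10.55, 10.65 and 11.26 in 0.25SY-raised females. The larval diet that stood apart at 1 day was thus 0.25SY for Ilp8 and 1SY for MtnD when read against the later means, although the change with age within a larval diet was not tested. CG15721 and CG13138 differed by -0.28 and 0.17 at middle age, and Muc12Ea by -0.96 with an adjusted p above the threshold.

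**Figure D4:**
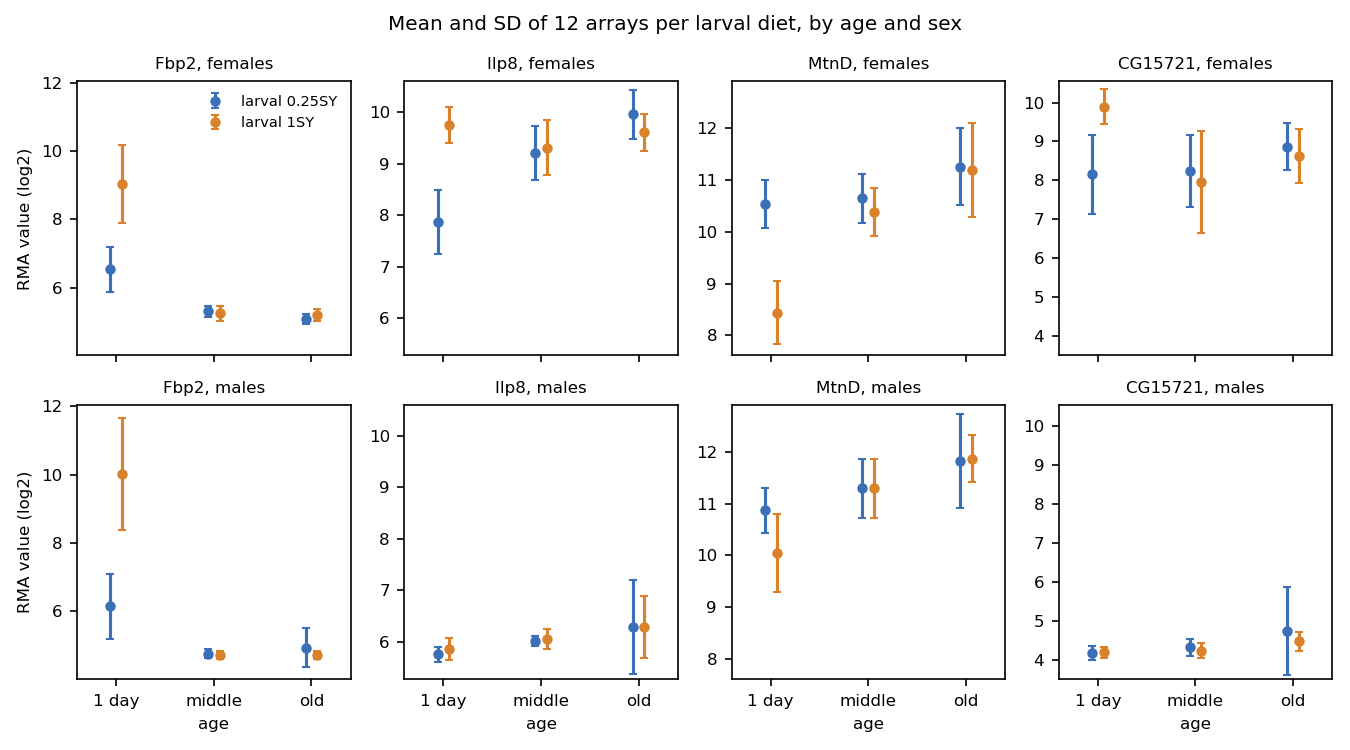
Mean RMA value (log2, y axis) with SD of 12 arrays per larval diet at 1 day, middle age and old age (x axis) in females (top) and males (bottom). The larval diets are apart at 1 day in females for all 4 genes and in males for Fbp2 and MtnD. The wide SD of old males on larval 0.25SY for Ilp8 comes from values up to 9.19 around a median of 6.06.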

How the data were processed

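RNA of whole flies was hybridised to Affymetrix Drosophila 2.0 arrays. The values are log2 values that the authors made with RMA (background correction, quantile normalization and summary over probes) and deposited, 1 per probe set. Per the study's methods RMA was run for each sex after a check of array quality, and whether the deposited table holds those values is not given in the sources used here. Of 18952 probe sets 183 controls were left out. Of the rest, 13647 were paired with 1 gene symbol, 402 with several and 4720 with none, and genes were named only from the first. The brightest probe set stood for each gene.

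The comparison was fitted with limma 3.58.1 in R 4.3.3 on the 24 arrays, with adult diet as a covariate. The tests in males and at later ages took their spread from joint fits, of both sexes and of the female ages. Adjusted p-values are Benjamini-Hochberg values over all 18769 probe sets, with a threshold of 0.05. Rose, fell, higher, lower and passed refer to it. The fits were tested on simulated data. Named were 5 marker genes, the 10 largest increases and decreases, the members of smallest p in each list (up to 4 in its majority direction and 2 in the other), and the genes of smallest interaction p and largest sex and age differences. Other list members given with their values (such as InR, Akt, Gbp1, Yp1, vas, ple and kkv) were chosen after their values were seen. The genes, lists and tests were chosen with earlier results of these data known. The number of arrays limits the precision. Alternatives were a filter on dim probe sets, other scalings, array weights, other sets of arrays, blocks, and leaving out each array.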

Additional observations from a re-analysis of the deposited data

Results flagged for a closer look

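Among 180 groups of 4 arrays (30 genes), 6 held an array whose gap to the others was large for the range of the group, and chance alone gives about 1 in 20 groups. The gap as a share of the range was 0.903 for MtnD in replicate 1 of larval 1SY and adult 2.5SY (7.287, next array 9.194). It was 0.854 for MtnC in replicate 1 of larval and adult 0.25SY and 0.863 for MtnB in replicate 3 of larval 0.25SY and adult 1SY. It was 0.845 for CG31661 in replicate 1 of larval and adult 1SY, 0.854 for Cp15 in replicate 4 of larval 0.25SY and adult 2.5SY (10.84, next array 13.921), and 0.89 for bcd in replicate 4 of larval 1SY and adult 2.5SY. All 6 were the lowest array of their group.

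The larval diet difference was unlike in females and males for 6948 probe sets by the test of the difference. The female minus male values were -1.72 for Fbp1, 0.9452 for Obp99b, 1.784 for Ilp8 and 1.285 for Ilp7. They were -1.288 for MtnD, -0.6383 for MtnC and -0.4093 for MtnA. They were 1.942 for CG31661, 1.72 for CG15721 and 1.703 for CG13138, and -0.488 for up, -0.7482 for Gad1 and -0.9336 for y.

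Against middle age the larval diet difference at 1 day was unlike for 3758 probe sets, and against old age for 6685. The values at 1 day minus middle age and minus old age were 2.568 and 2.393 for Fbp2, 2.045 and 2.017 for Fbp1, and 2.459 and 1.629 for Obp99b. They were 1.785 and 2.233 for Ilp8, -1.858 and -2.049 for MtnD, 2.027 and 1.99 for CG15721, and 1.498 and 2.078 for CG13138. For Muc12Ea the value against middle age was 2.312.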

How the results depend on the processing

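Over 16 alternatives the count of probe sets higher in 1SY-raised females ran from 3629 to 8082 and that of lower ones from 2671 to 3848. The highest count, 8082, came from centring each array on its median, which also gave 6733 higher on adult 1SY and 4691 on adult 2.5SY. By construction it raises every difference by the size of the shift between array medians. Quantile normalization repeated over the 1-day-old females gave 4257 higher and 3526 lower. Leaving out each of the 24 arrays gave 4192 to 4430 higher and 3567 to 3829 lower. At middle age array quality weights gave 161 probe sets in place of 2, and the cause was not tested.

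With the replicate number as a block (replicate block) 4273 were higher and 3634 lower. The numbers did not pair the arrays: deviations of arrays with the same number correlated at -0.3012 to 0.2657, and 4 of 24 arrays matched best with their own number. Blocks of 24 provider numbers gave 4275 and 3637.

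The alternatives were run for the 115 genes of the text that the naming rule gave, not for the other list members. None of these changed direction with its call. Of the 111 that passed, 95 passed under every alternative and 16 failed under at least 1. They were Cp15, Cp16, Cp18, Femcoat, Vm32E, fon, mtrm, bcd, wisp, mRpL27, Rpn13R, ATPsynCF6L, Cpr49Ac, Cyp6a19, Drs and Alp8.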
